A study of Homo sapiens with 36 samples.

Results

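GATA3 was knocked down in Mac1, an established line of cutaneous T cell lymphoma that the labels describe as cutaneous T lymphocytes, and polyadenylated RNA was sequenced. The members of this experiment were all libraries that the sample titles give to Mac1, 4 of the 36 libraries of the series. In 2 libraries the cells are labelled GATA-3 knock down (shGATA3, a short hairpin RNA against GATA3). In the other 2 the genotype is labelled WT and the title names a scramble hairpin, so the controls carried a hairpin too. All cells were grown in RPMI medium with 10% fetal bovine serum, and no drug or other treatment is named. H9 (2 control and 3 knockdown libraries) and MyLa (Myla CD4+ in the labels, 3 of each), the other 2 lines labelled as cutaneous T lymphocytes, were used to ask whether the response of Mac1 differed from theirs. The sources used here give neither the hairpin sequence nor the time after knockdown, nor do they say whether replicates came from separate cultures. Spread between libraries may thus be technical, the p-values below measure no more than that spread, and the results hold for 1 cell line.

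GATA3 is a zinc finger transcription factor that binds short DNA words built around GATA. In T cells it is needed for commitment to the lineage in the thymus, and later it drives the T helper 2 fate, in which cells make IL-4, IL-5 and IL-13, while it restrains the genes of the T helper 1 and cytotoxic fates. T helper 17 cells, another fate, make IL-17A, IL-17F and IL-22. Cutaneous T cell lymphomas often express GATA3, and the CD30-positive forms can also carry cytotoxic granule proteins.

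The 2 control libraries held 33943634 and 34033717 expected counts, and the 2 knockdown libraries 50626644 and 30202425. Levels below are CPM, counts scaled to a common normalised library total. They compare 1 gene across libraries but not different genes, since transcript length is not divided out. The share of counts from the mitochondrial genome was 0.903% and 1.06% in the controls and 0.643% and 0.487% in the knockdown libraries. Processed pseudogenes took 2.08% and 2.24% of the counts in the controls and 1.68% and 1.65% in the knockdown libraries, and the other 32 libraries lay between 1.13% and 2.2%. Ribosomal protein genes took 6.58% and 6.51%, then 7.24% and 6.8%. The mitochondrial, pseudogene and ribosomal protein shares did not overlap between the arms, and their part in the results below was not tested.

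The T cell label was checked against 13 defining genes. CD4 (180 and 189 CPM in the controls), CD2 (158 and 159), the zeta chain gene CD247 (76.4 and 81.8) and the T cell receptor constant gene TRAC (5.55 and 4.83) were detected. CD3D, CD3E, CD3G, TRBC1, CD28 and LCK were at 0 counts in all 4 libraries, so the surface receptor complex was not represented in full. TNFRSF8, which encodes CD30, was at 1252 and 1344 CPM in the controls and 1517 and 1714 in the knockdown libraries (adjusted p = 0.0994). Markers of other cells were then read in the same libraries. Of 10 B cell genes 5 were at 0, MS4A1, CD79B, CR2 and FCRL1 among them, and of 10 erythroid genes 6 were at 0, among them HBA1, HBA2, HBB, HBG1 and GATA1. The myeloid genes SPI1 and MPO and the epithelial genes EPCAM, KRT5, KRT14 and KRT18 were at 0 as well. The summed level of the epithelial and stromal list was 2217 and 2516 CPM in the controls and 2299 and 2388 in the knockdown libraries. Only 2 of its 12 genes had a mean of at least 1 CPM, and 5 were at 0, so the sum was not spread over the list. PECAM1, whose levels are given below, was 1 of those 2 and gave little of the sum. The sums were 160.3 and 170 CPM, then 185.1 and 195.5, for the B cell list, 193.5 and 203 and then 256.4 and 273.9 for 10 natural killer genes, 39.6 and 44.7 and then 62.5 and 66.2 for the myeloid list, and 7.4 and 8.3 and then 6 and 6.7 for the erythroid list. Most of the B cell sum came from BLK, whose levels are given below. Among these lists CD22, NKG7, PECAM1 and COL1A1 rose, and EBF1 and EPOR fell. The call of COL1A1 was lost without control 1 (adjusted p up to 0.164), and that of EPOR without control 2 or knockdown 1, without a filter on low counts, in the fit of Mac1 alone and in the crossed blocked fit (up to 0.29). Whether cells of these kinds played a part in any result was not tested, and in bulk RNA fewer cells of a type and less RNA per cell cannot be told apart.

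The target gene (GATA3, ENSG00000107485) lies on the plus strand of chromosome 10 at 8045378 to 8075203 in GRCh38. Its level was 81.5 and 99 CPM in the controls and 37.7 and 43.9 CPM in the knockdown libraries. Both knockdown libraries lay below both controls. The log2 fold change was -1.15 (SE 0.102, edgeR quasi-likelihood adjusted p = 9.57e-09), and it ranged from -1.25 to -0.98 over all alternative analyses. An antisense gene, GATA3-AS1, was at 0.135, 0.278, 0.511 and 0.281 CPM in the 4 libraries; the sources used here do not state whether counting used strand, so reads of such pairs cannot be told apart. The other GATA factors could hardly be measured: GATA1, GATA2, GATA5 and GATA6 were at 0 in every Mac1 library, and GATA4 was at 0 except for 0.0243 CPM in knockdown 1. Of the partner genes, ZFPM1, which encodes the cofactor FOG1, was at 11.5 and 14.8 CPM in the controls and 16.7 and 19.7 in the knockdown libraries (log2 fold change 0.47, adjusted p = 0.0377). That call was lost without control 1 or knockdown 2, in the fit of Mac1 alone and in the blocked fits (adjusted p up to 0.419). LDB1, RUNX1, RUNX3 and TRPS1, which encode a bridging factor and further transcription factors of lymphoid or GATA type, moved by 0.04 to 0.38 and did not pass the test.

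Across the genome, 1668 of 21138 tested genes passed an adjusted p of 0.05, which is 7.89% of the genes tested. Of these, 1171 rose (5.54%) and 497 fell (2.35%), so 70.2% of the calls were higher in the knockdown libraries. Most changes were modest, with a median absolute log2 fold change of 0.62 among the calls. At least 2-fold changes were called for 271 genes that rose and 193 that fell, and at least 4-fold changes for 90 and 55. Control and knockdown libraries did not overlap in 1666 of the 1668 called genes, a property that 51% of all tested genes shared. The number of calls depended on single libraries. It was 562 without control 1, 1033 without control 2, 803 without knockdown 1 and 996 without knockdown 2. Fitted on its own 4 libraries, Mac1 gave 2752 calls, of which 49.5% were higher, and 1379 of the 1668 genes were called there too. Among the 13024 tested genes with a mean of at least 1 CPM the median log2 fold change was 0.05, and 57.7% lay above 0. Of them 11.2% were called, 1050 higher and 412 lower. These values, with the shares over all tested genes, are the background for the medians and counts of gene groups below.

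**Figure D1:**
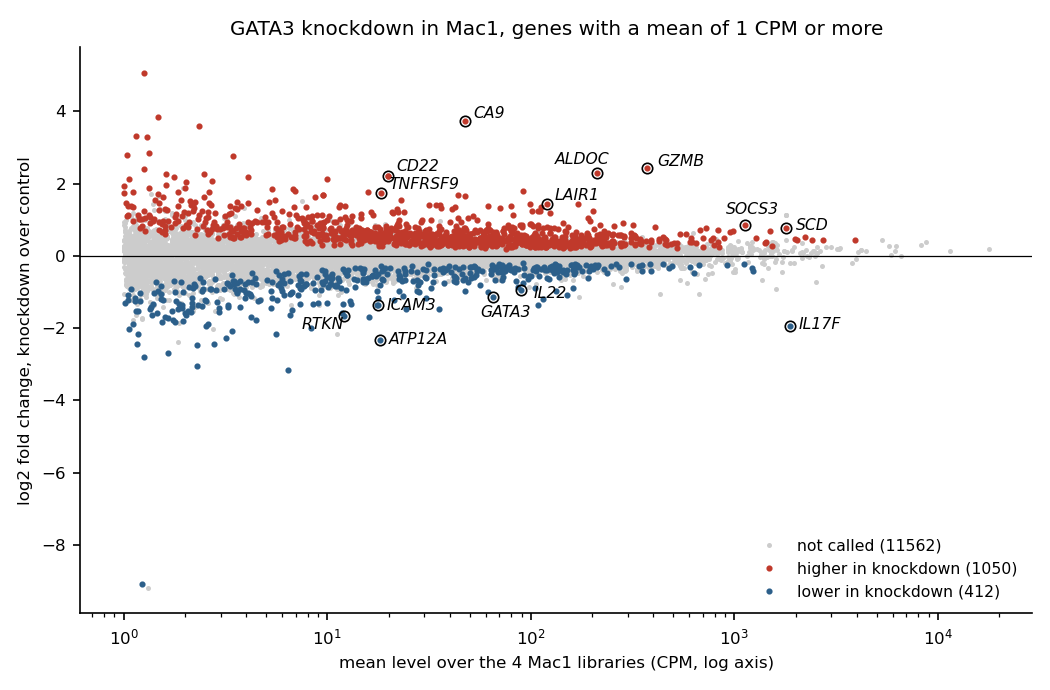
Log2 fold change of knockdown over control against the mean level over the 4 Mac1 libraries (CPM, log axis) for the 13024 tested genes with a mean of 1 CPM or more. Points are genes, red called higher, blue called lower, grey not called; named genes are circled, and the called gene near -9.08 is KNG1, which was listed at 0 in both knockdown libraries, so that its fitted value is no measure of size.

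The largest change in CPM of any called gene was a fall of IL17F, the gene of the T helper 17 cytokine IL-17F. IL17F (ENSG00000112116, chromosome 6, 52236681 to 52244537, minus strand) was at 2791 and 3153 CPM in the controls and at 767 and 787 CPM in the knockdown libraries, a log2 fold change of -1.94 (SE 0.122, adjusted p = 1.08e-09). Its neighbour IL17A (chromosome 6, 52186375 to 52190638, plus strand), which encodes the partner cytokine, moved the other way, from 3.4 and 4.38 CPM to 9.95 and 9.83 CPM (1.35, adjusted p = 0.0246). On chromosome 12 another pair of neighbouring cytokine genes also parted. IL22, which encodes a cytokine that acts on epithelia, was at 107 and 130 CPM in the controls and 60.6 and 61 CPM in the knockdown libraries (-0.96, adjusted p = 9.65e-04). IL26, the next cytokine gene on that chromosome, was at 9.85 and 9.81 CPM and then at 23.8 and 22.2 CPM (1.23, adjusted p = 0.00782), and it overlaps IFNG-AS1 on the other strand. For each of these 4 genes the knockdown libraries lay outside the range of the controls, as for 1666 of the 1668 called genes. The falls of IL17F and IL22 passed the test in every alternative analysis. The rise of IL17A was lost when any 1 library was left out and under DESeq2 (adjusted p up to 1), and that of IL26 without control 1, control 2 or knockdown 1 (up to 0.0862). Of the receptor and regulator genes of the fate, IL23R, RORA, AHR and BATF moved by -0.04 to 0.4 and did not pass the test. STAT3, the signalling factor downstream of IL-6 and IL-23, rose from 671 and 765 CPM to 890 and 996 (0.39, adjusted p = 0.00501, lost without control 1 or knockdown 2 at up to 0.11). IRF4, a factor of activated lymphocytes, rose from 618 and 637 CPM to 967 and 1090 (0.71, adjusted p = 2.85e-05). Over all tested genes 5.54% rose and 2.35% fell. Of 21 tested genes of the type 17 list, 4 rose and 2 fell, and 1 rose without control 1 and 2 without each other library.

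The T helper 2 and T helper 1 lists stand for the fates between which GATA3 is known to choose. IL4, IL5 and IL13 were at 0 in all 4 libraries, so the T helper 2 cytokines could not be measured. Of 18 tested genes of that list, the receptor gene IL4R rose (0.35, adjusted p = 0.0302) and LIF fell (-0.5, adjusted p = 0.0115), and neither call held in every analysis (adjusted p up to 0.219 for IL4R and 0.339 for LIF). The homing receptor gene CCR4 was at 350 and 371 CPM and then at 390 and 408 (adjusted p = 0.597). Of 18 tested genes of the T helper 1 list 4 rose, TNF and LTA among them, and 4 rose also without each single library, against 5.54% of all tested genes. LTA, which encodes lymphotoxin alpha, was at 0.269 and 0.104 CPM and then at 1.17 and 2.25, and TNF, which lies beside it on chromosome 6, was at 0.269 and 0.174 CPM and then at 1.09 and 1.4. Both stayed low in absolute terms, with 11 and 13 counts over both controls and 104 and 80 over both knockdown libraries. The rises of both passed the test in every alternative analysis. IFNG, the hallmark cytokine gene of the fate, was at 7.77 and 9.22 CPM and then at 14.2 and 14, with a log2 difference of 0.73 that did not pass (adjusted p = 0.097). TBX21, the gene of its master regulator T-bet, was at 17.8 and 21.1 CPM and then at 17.4 and 19.9.

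Several genes of the cytotoxic granule rose. GZMB (ENSG00000100453, chromosome 14, 24630954 to 24634267, minus strand), the gene of the granule protease granzyme B, was at 106 and 129 CPM in the controls and at 581 and 678 CPM in the knockdown libraries, a 5.37-fold higher mean (log2 fold change 2.43, SE 0.14, adjusted p = 4.87e-09). PRF1, which encodes the pore-forming protein perforin, rose from 495 and 524 CPM to 793 and 885 (0.72, adjusted p = 5.49e-05). GZMA, the gene of granzyme A, was near the limit of detection at 0.202 and 0.452 CPM and then at 2.55 and 2.09. The calls of these 3 genes held in every alternative analysis. Of 27 tested genes of the list 8 rose and 1 fell, against 5.54% and 2.35% of all tested genes. The others that rose were STXBP2 and NKG7, needed for granule release or found in granules, SRGN, the proteoglycan core of granules, SERPINB1, a protease inhibitor, and GZMH, which reached 0.361 CPM at most. UNC13D, which encodes the priming factor of granule fusion, fell from 50.3 and 53.4 CPM to 30.8 and 37.3 (-0.61, adjusted p = 3.9e-04). The list gave 4 rises without control 1 or knockdown 1 and 5 without control 2. NKG7 and GZMH lost their calls when any 1 library was left out (adjusted p up to 0.172 and 0.321), SERPINB1 without control 1, control 2 or knockdown 1 (0.199), SRGN without control 1 or knockdown 1 (0.146) and UNC13D without knockdown 1 (0.0501). The natural killer genes KLRF1, KLRC1, KIR2DL4 and KIR2DL1 were at 0 in all 4 libraries.

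**Figure D2:**
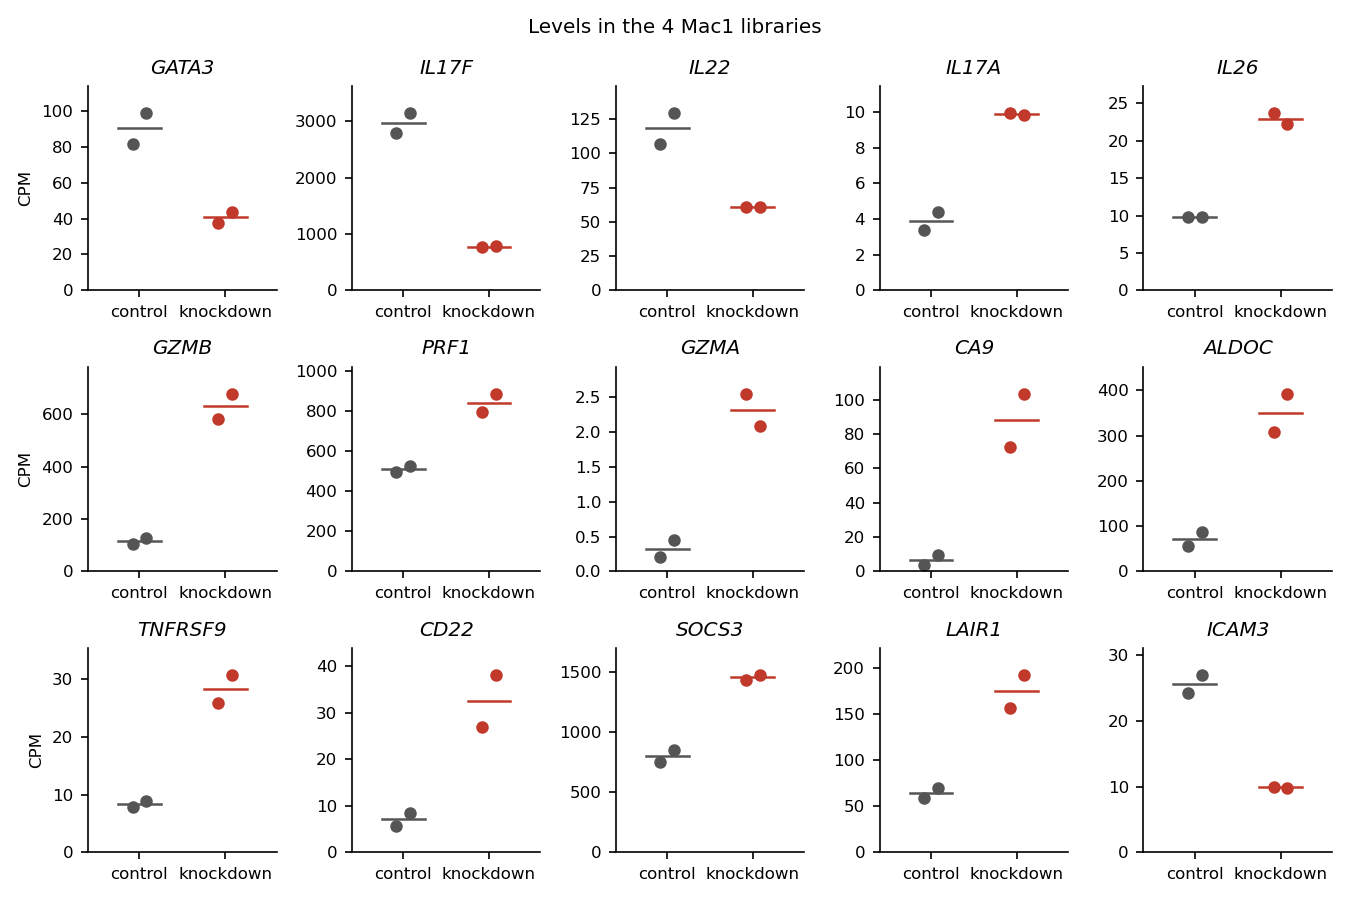
Level in each of the 4 Mac1 libraries (points, CPM, linear axes from 0) for 15 genes; grey is control, red is knockdown and bars are means of 2 libraries. GATA3, IL17F, IL22 and ICAM3 lie lower in both knockdown libraries, and the other 11 genes lie higher.

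Some genes of antigen presentation rose, with the 5.54% of all tested genes that rose as background. HLA-B and HLA-C encode heavy chains of class I MHC molecules, which show peptides to CD8 T cells. HLA-C went from 1207 and 1285 CPM to 1588 and 1631 (0.37, adjusted p = 3.39e-04). HLA-B gained 1150 CPM, the most of any called gene, from 3256 and 3417 to 4539 and 4433 (0.43, adjusted p = 0.00551). The shared light chain gene B2M gained 808 CPM (0.53, adjusted p = 0.00679). HLA-F rose from 97 and 98.5 CPM to 156 and 147 (0.63, adjusted p = 2.61e-05). In all, 8 of 23 tested genes of the list rose, 3 without control 1 and 5 without knockdown 1, and the median over the list was 0.22. The call of HLA-B was lost without control 1 (adjusted p up to 0.0733) and that of B2M without control 1 or knockdown 1 (up to 0.127). HLA genes are near-identical in places, so reads can be split between them, and HLA-B overlaps HLA-C in the annotation. Class II genes, which present peptides to CD4 T cells, gave 6 rises among 16 tested genes with a median of 0.34, HLA-DRA, HLA-DQA1, HLA-DPB1, HLA-DRB5, the cathepsin gene CTSS and the regulator gene RFXAP. HLA-DRA was at 1692 and 1763 CPM and then at 2426 and 2263 (0.44, adjusted p = 0.0467). These calls were fragile: no gene of the class II list was called without control 1 or without knockdown 1, 2 were called without control 2 and 3 without knockdown 2, while DESeq2 called 11. At an unadjusted p under 0.05 edgeR gave 12 rises. CIITA, the master regulator gene of class II, was at 334 and 312 CPM and then at 286 and 337.

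Some interferon response genes rose too, with the 5.54% of all tested genes that rose as background. IFI6, an interferon-induced gene of mitochondria, rose from 8.3 and 9.43 CPM to 17.4 and 16.9, and OAS1, an antiviral RNA sensor, from 4.84 and 5.36 to 10.2 and 10.1. IFITM1, a membrane protein that blocks virus entry, rose from 219 and 247 to 334 and 352 CPM. The calls of these 3 genes held in every alternative analysis. Of 46 tested genes of the list 13 rose, with a median of 0.28, and 5 rose without control 1. The chemokine gene CXCL10, which draws T cells and is induced by interferon gamma, rose from 41.2 and 47.3 to 130.2 and 100.1 CPM (1.38, adjusted p = 7.44e-07). GBP1, another interferon gamma target, was at 18.3 and 18.9 CPM and then at 19.2 and 16.8, so the response was not shared by all such genes.

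Some genes of cytokine signalling by STAT factors rose as well. Of 25 tested genes 10 rose, against 5.54% of all tested genes. Above 0 lay 22 of the 25, against 57.7% of genes with a mean of at least 1 CPM, and the median over the list was 0.29. SOCS3, a feedback inhibitor that STAT3 is known to induce, rose from 755 and 852 CPM to 1436 and 1479 (0.86, adjusted p = 1.32e-05). SOCS1, an inhibitor of JAK kinases, rose from 123 and 135 to 207 and 200.1 CPM (0.66, adjusted p = 1.6e-05), and CISH, a target of STAT5, from 259.9 and 282 to 368 and 399.6 (0.5, adjusted p = 0.00362). The survival kinase gene PIM2 rose from 179 and 193 to 289.5 and 290.2 CPM, and the anti-apoptotic gene MCL1 from 192 and 213 to 305 and 297. PIM1, STAT5B and PTPN6, a phosphatase that damps these signals, rose as well, by 0.56, 0.32 and 0.48. Without control 1 the list gave 5 rises. CISH lost its call without control 1 (adjusted p up to 0.0758), PIM1 and PTPN6 without control 1 or knockdown 1 (0.123 and 0.0971) and STAT5B without control 1 or knockdown 2 (0.0971). Upstream, IL2RG, the gene of the common gamma chain that receptors for IL-2 and related cytokines share, rose from 78.9 and 89.9 to 141 and 148 CPM (0.78, adjusted p = 1.99e-08). IL2RA, the high-affinity IL-2 receptor chain, gained 744 CPM (0.45, adjusted p = 0.0317), a call lost when any 1 library was left out and in both blocked fits (up to 0.231).

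**Figure D3:**
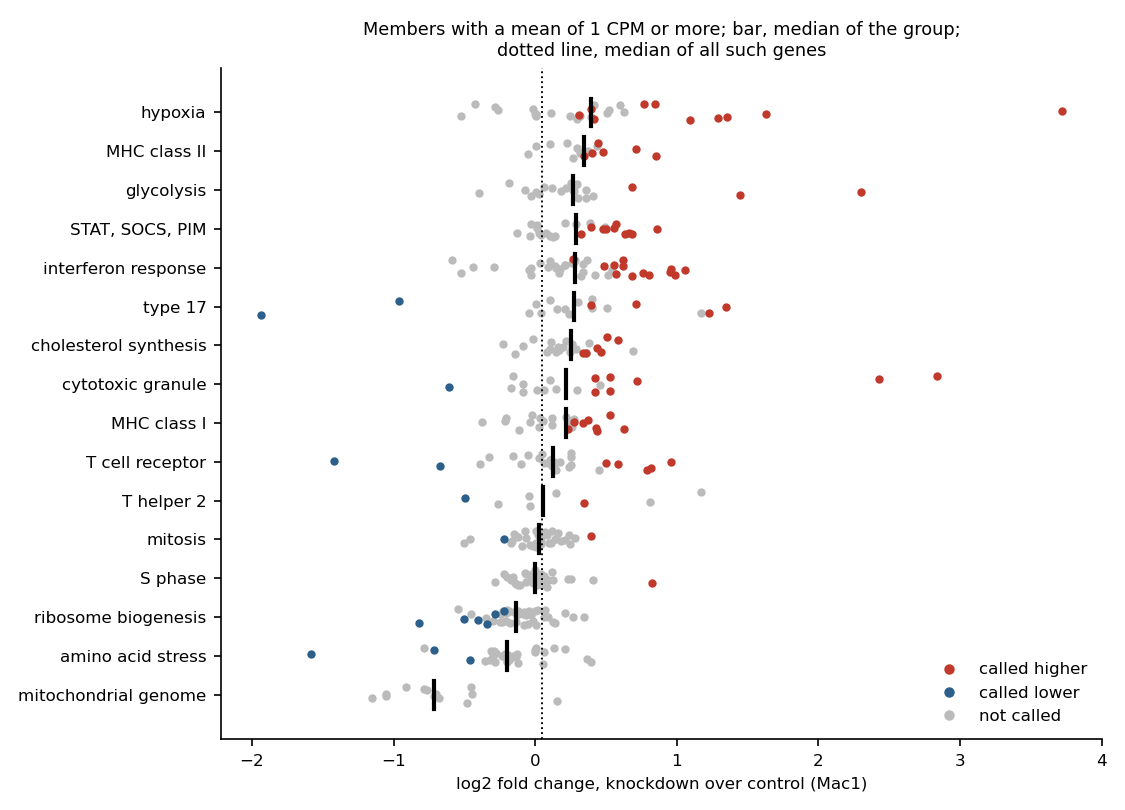
Log2 fold change in Mac1 for members of 16 gene groups with a mean of 1 CPM or more; points are genes, red called higher, blue called lower and grey not called. Black bars are group medians and the dotted line is the median of all 13024 such genes (0.05); the medians run from 0.39 for hypoxia to -0.71 for the mitochondrial genome.

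Hypoxia-inducible genes held the largest rise among called genes with at least 5 CPM in the higher arm, that of CA9. When oxygen is short, hypoxia-inducible factors pair with ARNT and bind DNA at words with the core ACGTG or GCGTG, which switches on glycolysis, acid export and collagen hydroxylation. Short stretches from the 250 bases before the RefSeq transcription starts are printed for 6 members that rose. They begin from 30 (CA9) to 206 bases (PGK1) before the start. They show where the letters ACGTG, or CACGT on the opposite strand, stand, though ALDOC holds further matches outside its stretch. Each is 30 bases of the GRCh38.p14 reference on the strand of its gene, with the words in capitals.
CA9, chr9:35673898-35673927, plus strand: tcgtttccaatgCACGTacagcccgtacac
ALDOC, chr17:28576906-28576935, minus strand: ccccggaggagtCACGTagctctgcgacat
ENO2, chr12:6914450-6914479, plus strand: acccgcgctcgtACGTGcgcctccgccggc
PGK1, chrX:78104042-78104071, plus strand: ccggACGTGacaaacggaagccgCACGTct
FAM162A, chr3:122384086-122384115, plus strand: cagcgcgtggcgCACGTcctacacgccccg
P4HA1, chr10:73096935-73096964, minus strand: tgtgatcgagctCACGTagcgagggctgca
The word ACGTG, which also lies inside the E-box CACGTG, stood on either strand in the 250 bases before the start in 8 of the 11 hypoxia and glycolysis members that rose and had a promoter in the table (72.7%). It stood in 60% of the 50 tested members of these lists with a promoter and in 29.7% of 9053 genes with a mean of at least 1 CPM. A match is a description of the letters and does not show that a factor was bound.

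CA9 (ENSG00000107159, chromosome 9, 35673856 to 35681159), which encodes the acid-handling carbonic anhydrase IX, was at 3.67 and 9.67 CPM in the controls and at 72.4 and 103 CPM in the knockdown libraries, a 13.2-fold higher mean (log2 fold change 3.72, SE 0.471, adjusted p = 8.58e-06). The glycolytic gene ALDOC (aldolase C) rose from 55.2 and 87 CPM to 308 and 393 (2.3, adjusted p = 1.27e-06). KDM3A, a histone demethylase gene, rose from 61.7 and 64.9 to 160.5 and 163 CPM (1.35, adjusted p = 7.44e-04). For these 3 genes the calls held in every alternative analysis. The same was true of BNIP3L, a gene of mitochondrial autophagy (28.5 and 37.8 to 70.8 and 70.5 CPM), of the collagen hydroxylase gene P4HA2 (20.7 and 27.1 to 53.9 and 63.1), of FAM162A (53.3 and 57.4 to 101 and 97.9) and of EPAS1, which encodes the hypoxia-inducible factor HIF-2 alpha (0.706 and 0.8 to 2.19 and 2.53). PGK1, phosphoglycerate kinase, gained 697 CPM (0.68, adjusted p = 0.0311), and ENO2, the gamma enolase gene, rose from 45.8 and 60.5 to 127 and 162 CPM (1.44, adjusted p = 0.00505). In all, 10 of 33 tested hypoxia genes rose, with a median of 0.39, and 3 of 25 glycolysis genes, with a median of 0.27. The glycolysis count is small and not far above the background, since 1050 of the 13024 genes with a mean of at least 1 CPM rose. Without control 1 the 2 lists gave 6 and 1 rises, and without knockdown 2 glycolysis also gave 1. PGK1 lost its call when any 1 library was left out (adjusted p up to 0.211), ENO2 without control 1 or knockdown 2 (0.109) and P4HA1 without control 1 or knockdown 1 (0.13).

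Other well-known hypoxia genes did not pass the test. The growth factor gene VEGFA was at 59.9 and 66.5 CPM and then at 49.3 and 54.9, and the glucose transporter gene SLC2A1 at 303 and 332 and then at 311 and 338. HIF1A, which encodes HIF-1 alpha, was at 140.5 and 155 CPM and then at 183 and 179 (adjusted p = 0.152). GAPDH was at 7092 and 7747 CPM and then at 8937 and 9242 (0.29, adjusted p = 0.138). The rise was therefore uneven within the list. The mitochondrial share of counts was lower in the same knockdown libraries, and its part in the rise was not tested.

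Some lipid genes rose by smaller steps, with the 5.54% of all tested genes that rose as background. SCD, which encodes the desaturase that makes monounsaturated fatty acids, rose from 1234 and 1415 CPM to 2160 and 2346 (0.77, adjusted p = 2e-07). FADS2, a desaturase of polyunsaturated fatty acids, rose from 352 and 381 to 502 and 548 CPM (0.52, adjusted p = 2.75e-04), and its relative FADS3 from 9.75 and 10.2 to 14.7 and 18.5. These 3 calls held in every alternative analysis. FADS3 was low throughout, and FADS2 overlaps FADS1 on the other strand. Of 23 tested genes of fatty acid synthesis 4 rose. Of 28 tested cholesterol genes 7 rose, with a median of 0.25, among them SREBF1, the gene of the master regulator SREBP1 (0.44, adjusted p = 0.00678), INSIG1, its retention factor (0.36, adjusted p = 0.0209), and the synthesis gene HMGCS1 (0.59, adjusted p = 0.0402). The cholesterol count rested on single libraries: no gene of it was called without control 1, 1 without knockdown 1 and 2 without each other library, while DESeq2 called 9 rises and edgeR gave 12 at an unadjusted p under 0.05. SREBF1 lost its call without control 1 or knockdown 2 (adjusted p up to 0.11), INSIG1 without control 1 or knockdown 1 and in the blocked fit (0.229) and HMGCS1 without any 1 library and in both blocked fits (0.259).

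Several genes of cell surface receptors were among the calls, which took 5.54% of all tested genes as rises and 2.35% as falls. TNFRSF9, which encodes the costimulatory receptor 4-1BB, went from 7.87 and 8.94 CPM to 25.8 and 30.7 (1.75, adjusted p = 3e-08). CD22, a sialic acid binding inhibitory receptor best known from B cells, went from 5.61 and 8.56 to 27 and 38.2 CPM (2.2, adjusted p = 1.24e-05). Of the other B cell genes tested beside it, BLK was at 141 and 146 CPM and then at 148 and 147, and EBF1 fell from 13.1 and 14.1 to 9.15 and 8.67, a call lost when any 1 library was left out (adjusted p up to 0.162). LAIR1, an inhibitory collagen receptor, rose from 58.9 and 70.1 to 157 and 193 CPM (1.44, adjusted p = 4.19e-09). PECAM1, an adhesion receptor, rose from 17.9 and 21.4 to 52 and 52.2 CPM (1.41, adjusted p = 3.9e-07). All 4 rises held in every alternative analysis. Of 23 tested costimulatory and inhibitory receptor genes 6 rose, 2 without control 1 and 3 without control 2 or knockdown 1, and CD274, which encodes PD-L1, was at 29.9 and 29.2 CPM and then at 32.3 and 33.4. Of 30 tested genes of the TNF superfamily 6 rose and 2 fell, and 4 rose and 0 fell without control 1 or without knockdown 1. In the full fit edgeR gave 10 rises and 2 falls at an unadjusted p under 0.05, and DESeq2 called 8 and 2.

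The T cell receptor list gave 6 rises and 2 falls among 39 tested genes, 3 and 1 without control 1. The phosphatase gene PTPRC (CD45), which opens receptor signalling, rose from 184 and 188 to 333 and 323 CPM (0.82, adjusted p = 3.04e-05), and LAT, the adaptor gene, from 5.61 and 5.71 to 9.68 and 12.5 (0.96, adjusted p = 4.71e-06). TRAC rose from 5.55 and 4.83 to 8.37 and 9.63 CPM (0.79, adjusted p = 3.95e-05), and the coreceptor gene CD4 from 180 and 189 to 269.8 and 285 (0.59, adjusted p = 0.00413). The adaptor gene SKAP1 fell from 1.78 and 2.19 CPM to 0.803 and 0.642. Beside the 6 rises and 2 falls of the 39, 5.54% of all tested genes rose and 2.35% fell. CD4 and CD247 lost their calls without control 1 (adjusted p up to 0.0584 and 0.0842). Some adhesion genes fell and others rose. ICAM3, a ligand of the integrin LFA-1, fell from 24.3 and 27.1 CPM to 9.93 and 9.87 (-1.37, SE 0.0838, adjusted p = 1.23e-11). FERMT3, which encodes kindlin-3, the activator of leukocyte integrins, fell from 39.8 and 44.7 to 17.5 and 20 CPM (-1.18, adjusted p = 2.22e-10); it overlaps TRPT1 on the other strand. RTKN, the gene of rhotekin, fell from 17.5 and 19.2 to 6.45 and 5.02 CPM (-1.67, adjusted p = 1.39e-09). The integrin genes ITGB7 and ITGAX rose, from 111 and 113 to 175 and 188 CPM and from 18.7 and 18.3 to 40.4 and 58.7 CPM. All 5 held in every alternative analysis.

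Further large falls came from genes of varied function. ATP12A, a proton pump gene, fell from 26.6 and 34.1 CPM to 5.52 and 6.58 (-2.33, adjusted p = 1.8e-07), and the homeobox gene ONECUT2 from 14.2 and 12.3 to 3.28 and 3.33 (-2, adjusted p = 5.3e-05). BMP2, the gene of a bone morphogenetic protein, fell from 21.9 and 27.2 to 7.62 and 7.66 CPM (-1.69, adjusted p = 0.00325). CHAC1, whose product degrades glutathione, fell from 17.5 and 17.9 to 6.18 and 5.58 CPM (-1.59, adjusted p = 0.00233). The 4 falls held in every alternative analysis. Among the 15 largest falls were also the mitochondrial pseudogenes MTCO3P12 and MTND4LP30, which share sequence with the mitochondrial genome, and the annotated RNA Telomerase-vert, which overlaps the telomerase RNA gene TERC. Telomerase-vert went from 11.8 and 11.3 CPM to 1.31 and 1.24 (-3.17, adjusted p = 0.00304, lost without knockdown 1 at up to 0.0575). MTND4LP30 lost its call when any 1 library was left out (up to 0.307).

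Some genes of ribosome biogenesis and amino acid supply fell, with the 2.35% of all tested genes that fell as background. Ribosomal protein genes went the other way, with 49 of 50 above 0 and a median of 0.16. RPS6 alone among them was called, as a rise (0.48, edgeR adjusted p = 0.0105). That call did not hold in every alternative analysis. Of 46 tested genes of ribosome biogenesis 6 fell, with a median of -0.13. Above 0 lay 10 of the 46, against 57.7% of genes with a mean of at least 1 CPM. UTP20, a factor that processes ribosomal RNA, fell from 76.2 and 67.6 CPM to 40.1 and 41.6 (-0.82, adjusted p = 0.00118, held in every alternative analysis). HEATR1, needed for ribosomal RNA transcription, fell from 192 and 188 to 133 and 135 CPM (-0.5, adjusted p = 0.0118), and RRP12, an export factor of ribosomal subunits, from 169.7 and 172 to 121 and 138 (-0.4, adjusted p = 0.0188). HEATR1 lost its call when any 1 library was left out (adjusted p up to 0.122) and RRP12 without control 1, control 2 or knockdown 1 (0.324). The list gave 2 falls without control 1, control 2 or knockdown 1 and 3 without knockdown 2, while DESeq2 called 10. Of 35 tested genes of amino acid supply and its stress response 3 fell, CHAC1, CTH and VLDLR, with a median of -0.2, and 1 fell without control 1 or either knockdown library. CTH, an enzyme of cysteine synthesis, lost its call when any 1 library was left out (adjusted p up to 0.176), and the lipoprotein receptor gene VLDLR without control 1 or either knockdown library (0.0827). ATF4, the transcription factor gene of that response, was at 584 and 608 CPM and then at 510.5 and 466 (adjusted p = 0.0769). Among genes of proliferation, 17 of 37 DNA replication genes and 24 of 37 mitosis genes lay above 0, and 1 and 2 of them were called.

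Transcripts of the mitochondrial genome were lower in level without passing the test. MT-CO1, a subunit of complex IV, was at 2936 and 3340 CPM and then at 2148 and 1677 (-0.71, adjusted p = 0.212). MT-ND5, a subunit of complex I, was at 836 and 984 CPM and then at 509 and 366 (-1.06, adjusted p = 0.0552). MT-ND3 was the only gene of the 13 with a value above 0, at 92 and 117 CPM and then at 120 and 113. The median of the 13 genes was -0.71, edgeR called none of them, 8 were lower at an unadjusted p under 0.05, DESeq2 called 1 lower, and the fit of the 4 Mac1 libraries alone called 11 lower. Nuclear genes of the respiratory chain had a median of 0.07, and among them COX7C, a complex IV subunit gene, rose from 67.2 and 64.3 to 166 and 148 CPM (1.26, adjusted p = 1.37e-06).

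Fold changes in Mac1 also moved with transcript length. Over protein-coding genes with a mean of at least 5 CPM, the median log2 fold change was 0.09 for genes whose longest transcript was under 2000 bases and -0.11 for those of 10000 bases or more. In H9 these medians were 0.04 and -0.03, and in MyLa -0.06 and 0.03. Processed pseudogenes gave 2 rises and 49 falls among 1455 tested, where 5.54% of all tested genes rose and 2.35% fell. Rises were thus scarce, and falls were somewhat more frequent than over all genes. UTP20 and HEATR1 have long transcripts (9025 and 8447 bases), whereas the 13 mitochondrial genes are short (median 784 bases). The part of length and of pseudogene counts in the calls was not tested.

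The words that GATA factors bind were searched in the promoters, here A or T, then GATA, then A or G, on either strand in the 250 bases before the RefSeq start. Of 9053 genes with a mean of at least 1 CPM and a promoter in the RefSeq list, 17% held at least 1 such word. Among such genes the share was 18.9% of 816 that rose and 22% of 254 that fell. Stretches of 4 named genes that hold one are printed to show the words, in capitals, among 30 bases of GRCh38.p14 on the strand of the gene.
TNFRSF9, chr1:7940984-7941013, minus strand: tttgaagtgccaTTATCAggcagggacggg
FERMT3, chr11:64206680-64206709, plus strand: ccgccctgctcgTGATAAggcacaagcaag
IL26, chr12:68225869-68225898, minus strand: ataaactgtaaaTTATCTttcacagcacct
GZMA, chr5:55102607-55102636, plus strand: ctctcagtatatAGATAGaggcagttaaga
FERMT3 fell, and the other 3 rose. The windows of IL17F, IL17A, GZMB, PRF1, HLA-B, B2M, ICAM3, RTKN, CA9 and ALDOC do not hold these letters, which says nothing about binding elsewhere.

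Mac1 responded differently from the other cutaneous lines in many genes. The response of Mac1 was tested against the mean response of H9 and MyLa, each with its own controls, and 949 of 21138 genes differed (4.49%), 669 with a higher and 280 with a lower response in Mac1. Of the 1668 genes called in Mac1, 756 differed (45.3%). The count was 336 without control 1, 494 without knockdown 1, and 736 and 704 without control 2 and knockdown 2. For 19 of the 210 genes the naming rule gave, CA9, GZMB, IL17F, IL17A, IL22 and HLA-DRA among them, the difference from the mean of both lines could not be estimated; these genes were at or near 0 in at least 1 of Mac1, H9 and MyLa. For HLA-DRA, at 0 in MyLa, the difference from H9 alone was 0.77 (adjusted p = 0.0215). TNFRSF9 rose by 1.75 in Mac1, fell by 0.98 in H9 (adjusted p = 3.12e-05) and was at 0.16 in MyLa (difference 2.16, adjusted p = 3.22e-08). IDH2, the mitochondrial isocitrate dehydrogenase gene, rose by 0.97 in Mac1, was at 0.23 in H9 and fell by 0.36 in MyLa (difference 1.04, adjusted p = 7.25e-08). ICAM3 was at -0.15 in H9 and 0.03 in MyLa (difference -1.31, adjusted p = 9.56e-10), and RTKN at -0.5 and -0.09 (difference -1.37, adjusted p = 4.82e-06). The estimated size of the knockdown varied between the lines, but no tested difference passed, and H9 and MyLa were not compared with each other. GATA3 fell by 1.25 in H9 and by 0.72 in MyLa, and the difference of Mac1 was -0.16 from the mean of both (adjusted p = 0.531), 0.1 from H9 (adjusted p = 0.845) and -0.43 from MyLa (adjusted p = 0.0504). The part of this in the other differences was not tested. Of the rises above, those of SOCS3 (difference 0.96), PRF1 (0.74), ALDOC (2.38) and SCD (0.69) also differed, with adjusted p from 2.03e-05 to 6.77e-04. That of HLA-B did not pass (0.25, adjusted p = 0.254), though it did under limma-voom, DESeq2 and the fit of the 3 lines alone. HLA-B rose in MyLa as well, by 0.43.

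**Figure D4:**
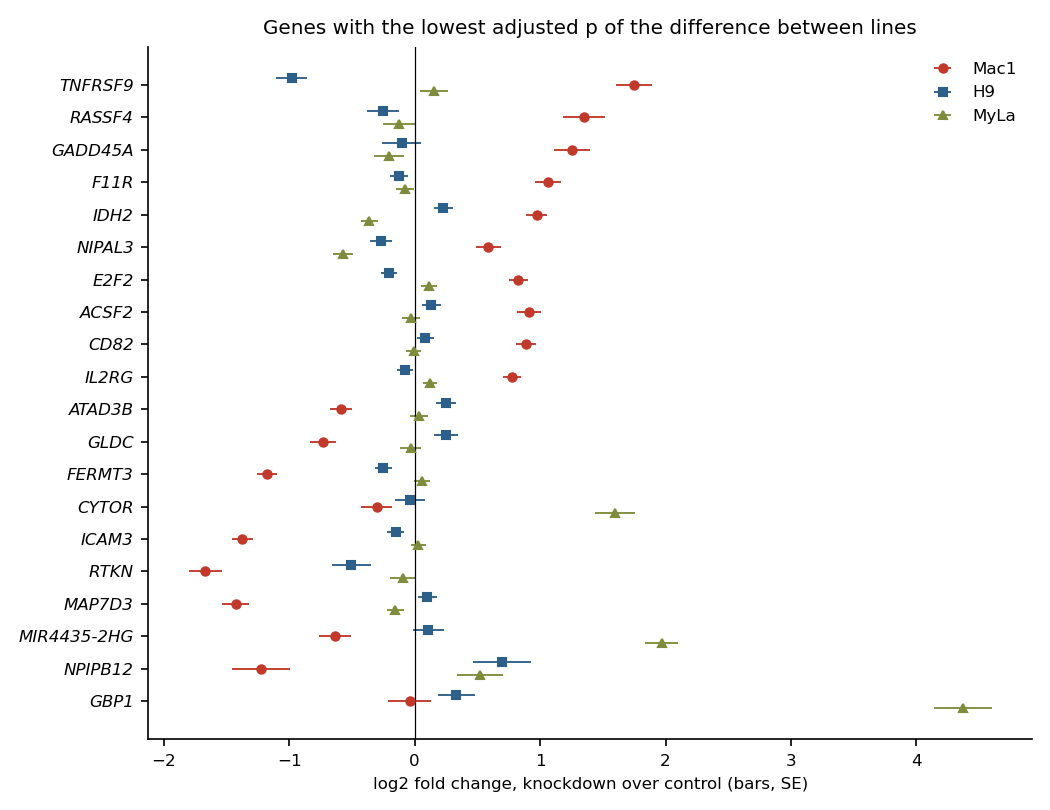
Log2 fold change with SE in Mac1 (red circles), H9 (blue squares) and MyLa (green triangles) for the 10 genes in each direction with the lowest adjusted p of the difference. For TNFRSF9, ICAM3 and RTKN the value of Mac1 lies far from 0 and from both other lines, whereas for GBP1, MIR4435-2HG and CYTOR it is MyLa that lies far out, at 4.37, 1.97 and 1.6.

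Calls were compared with those in H9 and MyLa, each tested against its own controls. Of the 1668 calls in Mac1, 102 were also called in H9 (6.12% of the calls in Mac1 and 26.6% of the 384 in H9), 80 of them in the same direction. With MyLa 97 were shared (5.82%, and 24.4% of 397), 77 in the same direction. Of all 21138 tested genes 384 were called in H9, 397 in MyLa and 7.89% in Mac1, so both overlaps lay above these shares. In all 3 lines 23 genes were called, 21 in 1 direction. B4GALT3, which encodes a galactosyltransferase of the Golgi, fell by 0.98 in Mac1, 1.21 in H9 and 0.85 in MyLa. TULP3, a gene of ciliary trafficking, rose by 2.13, 0.99 and 1.25, TEX19 by 2.2, 1.21 and 0.86, and COX7C by 1.26, 0.74 and 0.47. The semaphorin gene SEMA4D rose by 0.81, 0.49 and 0.49, and PIM2 by 0.64, 0.38 and 0.34. IFIT2, an interferon-induced gene, rose in Mac1 by 0.62 but fell by 1.23 in H9 and 0.79 in MyLa, and its call in Mac1 was lost when any 1 Mac1 library was left out (adjusted p up to 0.219).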

How the data were processed

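Polyadenylated RNA was sequenced. Reads were trimmed with cutadapt 2.3, aligned with STAR 2.7.8a to GRCh38 and quantified with RSEM 1.3.3, per the submitters' processing notes. The deposited table holds expected counts per gene as whole numbers. Which annotation release and strand setting the authors used is not stated. Of the 60628 deposited rows, 96.5% matched GENCODE release 29, from which names and positions were taken.

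Genes were tested with edgeR 4.0.16 (quasi-likelihood, TMM scaling, filterByExpr) on all 36 libraries with 14 group means, which then share an estimate of the spread, and p-values were adjusted by Benjamini-Hochberg at 0.05. That fit includes a line whose libraries go against their labels for GATA3; a fit of H9, MyLa and Mac1 leaves it out. Levels are CPM on TMM-scaled totals. The Mac1 libraries held 30202425 to 50626644 counts, and 3 counts, taken as the limit of detection, correspond to 0.059 to 0.099 CPM; this covers counting error only. The response of Mac1 was compared with the mean response of H9 and MyLa as a contrast of that fit.

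Genes were named by rule: GATA3 and its partners, the 15 largest fold changes in each direction among called genes with arms that did not overlap and at least 5 CPM in the higher arm, the 10 largest changes in CPM in each direction, up to 5 called members of each list per direction (43 lists and 7 of markers) with the members its function rests on, and the 10 lowest adjusted p of the difference in each direction. Further genes were named after their values were seen, and some genes are not reported here. The members and lists were chosen with earlier results of these data known. Alternatives were DESeq2 1.42.0, its size factors, limma-voom 3.58.1, other filters, a fit of Mac1 alone, a fit of 3 lines, a replicate block and leaving out each Mac1 library. Promoters came from the RefSeq table for GRCh38.p14. The code was tested on simulated counts.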

Additional observations from a re-analysis of the deposited data

Results flagged for a closer look

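The response of Mac1 to GATA3 knockdown differed from the mean response of H9 and MyLa in 949 genes, by edgeR's test of the difference itself. The genes below were flagged because this test passed for them, and each difference is the log2 fold change in Mac1 minus the mean of the other lines. The difference of every gene named here also passed in each of the 12 alternative analyses run for it.

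Higher responses in Mac1 included the costimulatory receptor gene TNFRSF9 (2.16), the aldolase gene ALDOC (2.38), RASSF4 (1.54), the stress gene GADD45A (1.41), the junction gene F11R (1.17) and IDH2 (1.04). The differences of NIPAL3 (1.0), SOCS3 (0.96), the cell cycle factor gene E2F2 (0.87), ACSF2 (0.86), the tetraspanin gene CD82 (0.85), IL2RG (0.75), PRF1 (0.74) and SCD (0.69) were smaller.

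Lower responses in Mac1 were found for NPIPB12 (-1.83), MAP7D3 (-1.4), RTKN (-1.37), ICAM3 (-1.31), FERMT3 (-1.08), the glycine cleavage gene GLDC (-0.84) and ATAD3B (-0.73). NPIPB12 belongs to a family of near-identical copies, so its counts are uncertain, and its own call in Mac1 was lost without control 1 (adjusted p up to 0.107). The differences of GBP1 (-2.39), MIR4435-2HG (-1.68) and CYTOR (-1.08) came with rises in MyLa of 4.37, 1.97 and 1.6.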

How the results depend on the processing

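GATA3 was called lower in every alternative, between -1.25 and -0.98. The 1668 calls became 464 with an absolute log2 fold change of at least 1, 2752 in the fit of Mac1 alone and 3073 in the fit of H9, MyLa and Mac1. The 949 differences became 1444 under limma-voom and 2133 in the fit of 3 lines. Members of the lists called, 187 in all, became 299 in the fit of Mac1 alone and 330 in the fit of 3 lines. Leaving out 1 Mac1 library gave 562 to 1033 calls, 336 to 736 differences and 82 to 136 list members, the lowest each time without control 1. With the replicate number as a block 1386 genes were called, 1277 of them among the 1668. Nothing in the labels ties same-numbered libraries together, and the replicate differences of the arms correlated at -0.148 over 10583 genes. The crossed pairing, chosen after seeing the data, gave 1459 calls and 727 differences. Of 227 named genes called besides GATA3, 106 kept the call in every alternative run for them (13, or 12 for KNG1), and no value past the threshold reversed; some values near 0 changed sign. Of 559 list medians recomputed, 69 moved by more than the replicate spread. Genes under 0.1 CPM could not be compared at this depth. The mitochondrial share (difference -0.414 points) involves no fit and has no alternative. The cause of these changes was not tested, except that leaving out a library leaves fewer samples.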

Other observations

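Some stress and growth-arrest genes not described above also rose. Of 33 tested genes of a list of p53 targets and cell cycle inhibitors, 8 rose and 1 fell. Of all tested genes 5.54% rose and 2.35% fell, and 1050 of 13024 genes with a mean of at least 1 CPM rose. Fewer genes of the list were called without control 1 or without knockdown 1. GADD45A, which is induced by DNA damage and other stress, was at 54.1 and 65.1 CPM in the controls and 139 and 145 in the knockdown libraries (log2 fold change 1.25, adjusted p = 5.88e-07). ZMAT3, a p53 target that acts on splicing, went from 11.4 and 10.8 to 18.3 and 17.4 CPM, and CDKN2D, a cyclin-dependent kinase inhibitor gene, from 22.2 and 24 to 35 and 34 CPM. The calls of these 3 genes held in every alternative analysis.

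Some genes of calcium binding and matrix turnover rose too, with the 5.54% of all tested genes that rose as background. S100A4, a calcium-binding protein linked to cell motility, rose from 73.3 and 77.8 to 178 and 166 CPM (1.19, adjusted p = 2.56e-05), and S100A10, a partner of annexin A2, from 93.7 and 99.7 to 174 and 156 (0.77, adjusted p = 1.26e-04). TIMP1, an inhibitor of matrix proteases, rose from 184 and 209 to 348 and 391 CPM (0.91, adjusted p = 1.2e-06). The cytokine gene IL32 rose from 719 and 758 to 1176 and 1147 CPM (0.65, adjusted p = 4.83e-04). Of 16 tested genes of the S100 list 4 rose, and of 22 matrix genes 6 rose and 1 fell, with 3 rises of matrix genes without control 1 or knockdown 2.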
